A study of Mus musculus with 3 samples.

Results

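DNAJ proteins, also called J-domain proteins or HSP40 co-chaperones, were examined at the transcript level in sorted round spermatids, the haploid male germ cells that follow meiosis. The members were all protein-coding genes of the deposited table whose symbol begins with Dnaj, which gave 45 of 17946 genes. By the letter of the symbol, 4 belonged to class A, 13 to class B and 28 to class C. All 45 protein-coding genes of that name in the GENCODE M21 annotation were in the table. The cells came from MiwiΔIns mice, from MiwiR371W mice and from wild-type mice, all male, of the C57BL/6 strain and 28 days old. The mutated gene, Miwi or Piwil1, codes for a piRNA-binding PIWI protein of spermatocytes and spermatids, and the labels give its alleles by these names with no further detail. There was 1 library for each genotype, so differences have no replicate check, no test was possible, and each statement describes these libraries. The number of animals behind each library and its strandedness are not stated in the labels.

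A J-domain protein binds an HSP70 chaperone through its J domain and speeds up the hydrolysis of ATP by which HSP70 closes on a client protein. Class A members also carry a zinc-binding region, class B members a glycine- and phenylalanine-rich stretch, and class C members share little beyond the J domain, which delivers HSP70 to places such as the endoplasmic reticulum, mitochondria, the spliceosome or vesicles. Some members are known for expression in the testis, where haploid cells build the acrosome and the flagellum and replace most of their histones.

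Values are the deposited expression values, normalised to transcript length and library size. Piwil1 itself was at 23.2 in MiwiΔIns, 23.4 in MiwiR371W and 20.3 in wild type, and a value per gene does not show which allele a library carries. The values summed to 697804 in MiwiΔIns, 630809 in MiwiR371W and 647897 in wild type. From the steps between low values, a value of 5 in a transcript of 1 kb effective length rested on about 71 fragments in MiwiΔIns, 52 in MiwiR371W and 65 in wild type. Round spermatid markers were abundant in all libraries, with summed values of 23132 in MiwiΔIns, 18878 in MiwiR371W and 16807 in wild type over 10 of 10 listed genes, protamine and transition protein transcripts among them. Spermatogonial markers summed to 22.9 in MiwiΔIns, 26.2 in MiwiR371W and 23.3 in wild type over 7 of 7 genes. Sertoli markers summed to 24.4 in MiwiΔIns, 25.7 in MiwiR371W and 34.4 in wild type over 8 of 10, and macrophage markers to 10.1 in MiwiΔIns, 13.4 in MiwiR371W and 6.56 in wild type over 4 of 6. Leydig markers summed to 44.5 in MiwiΔIns, 32.9 in MiwiR371W and 44.3 in wild type over 6 of 6, most of it Scarb1, at 37.0 in MiwiΔIns, 26.4 in MiwiR371W and 40.4 in wild type. Peritubular and endothelial markers summed to 209 in MiwiΔIns, 157 in MiwiR371W and 259.8 in wild type over 5 of 5, nearly all of it Actg2. The other 4 of that list were all highest in MiwiR371W: Acta2 was at 2.17 in MiwiΔIns, 5.53 in MiwiR371W and 1.01 in wild type, and Myh11, Pecam1 and Cdh5 lay between 0.22 and 0.44 in MiwiΔIns, between 1.15 and 1.32 in MiwiR371W and between 0.47 and 0.65 in wild type. Spermatocyte markers summed to 1374 in MiwiΔIns, 1477 in MiwiR371W and 1557 in wild type over 10 of 10. The largest was the meiotic chaperone Hspa2, at 664 in MiwiΔIns, 855 in MiwiR371W and 958 in wild type. Hspa2 was the 1 marker of this list that was highest in wild type, and it set the order of the sums. The others were each highest in a mutant library. Syce1, the next largest, was at 413 in MiwiΔIns, 384 in MiwiR371W and 355 in wild type. The lowest value of the table was 0.01 in each library, so no measured marker could be at 0. The defining Sertoli genes Sox9 and Amh, the macrophage genes Adgre1 and C1qa and the 4 erythroid globin genes were looked for. They were not among the coding genes of the table.

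The DNAJ family was represented across a wide range of levels, from a few members among the most abundant spermatid transcripts to members barely detected. Its summed value was 4645 in MiwiΔIns, 4009 in MiwiR371W and 4087 in wild type, which was 0.666% in MiwiΔIns, 0.636% in MiwiR371W and 0.631% in wild type of the sum of all genes. The median member was at 37.8 in MiwiΔIns, 40.5 in MiwiR371W and 31.2 in wild type. The median of all 15497 protein-coding genes was 4.41 in MiwiΔIns, 4.76 in MiwiR371W and 4.33 in wild type, and the number of the 45 members at or above it was 39 in MiwiΔIns, 39 in MiwiR371W and 38 in wild type. The 5 highest members held 51.8% in MiwiΔIns, 49.9% in MiwiR371W and 51.2% in wild type of the family's summed value, and the 10 highest held 72.1% in MiwiΔIns, 69.5% in MiwiR371W and 72.0% in wild type. The leading 3 were Dnajb3, Dnajc15 and Dnajb6 in every library, with Dnajb6 above Dnajc15 in MiwiR371W. Class B held 50.8% of the sum in MiwiΔIns, 57.1% in MiwiR371W and 56.5% in wild type. Class C, with 28 members, held 41.3% in MiwiΔIns, 34.4% in MiwiR371W and 35.5% in wild type, and class A held 7.93% in MiwiΔIns, 8.59% in MiwiR371W and 8.03% in wild type. The larger class C share in MiwiΔIns went with higher values of Dnajc15 and Dnajc5b there.

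**Figure D1:**
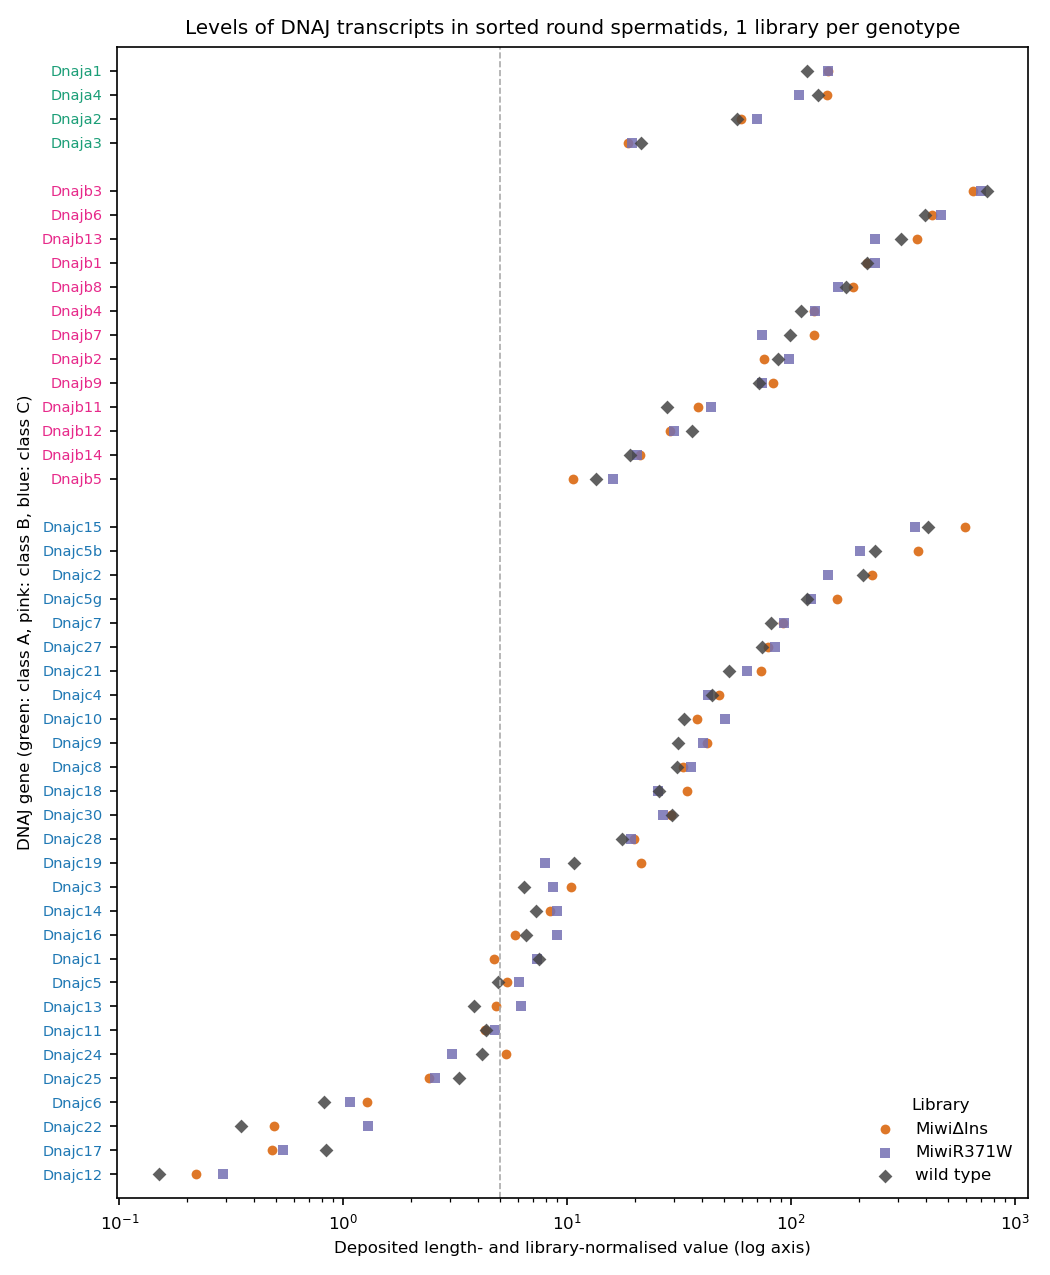
Deposited value of each of the 45 DNAJ genes (log axis) in the MiwiΔIns (circles), MiwiR371W (squares) and wild-type (diamonds) libraries, grouped by class and ordered by mean; the dashed line marks the value of 5 used in the size rule. Dnajb3 stands highest in every library, all class A and class B members lie above 5, and class C runs from Dnajc15, at 358 or more, down to Dnajc12, below 1 in every library.

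Members known for expression in the testis made up a large share of the family. Dnajb3, Dnajb7, Dnajb8, Dnajb13, Dnajc5b and Dnajc5g, a list taken from general knowledge of testis expression, summed to 1860 in MiwiΔIns, 1498 in MiwiR371W and 1683 in wild type. That was 40.04% in MiwiΔIns, 37.4% in MiwiR371W and 41.2% in wild type of the family. Their median level was 277 in MiwiΔIns, 182 in MiwiR371W and 207 in wild type. The median of the other 39 members was 29.2 in MiwiΔIns, 26.8 in MiwiR371W and 27.8 in wild type. In bulk RNA of sorted cells, a difference in the mix of spermatid steps and a difference in RNA per cell cannot be told apart.

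Dnajb3, the mouse sperm J protein first described in spermatids and sperm, is a single-exon gene (ENSMUSG00000081984.2; GRCm38 chromosome 1, 88204732 to 88205782, minus strand). It was at 649.6 in MiwiΔIns, 701 in MiwiR371W and 744 in wild type, rank 100 of 15497 coding genes by mean value. The wild-type library was the highest, and the range over the 3 libraries was 1.15-fold. The 250 bases before its RefSeq start (chr1:88205749-88205998, GRCm38.p6, minus strand) are shown because it is the most abundant member. They held none of the motifs searched, which are described with the heat shock inducible members below.
Dnajb3: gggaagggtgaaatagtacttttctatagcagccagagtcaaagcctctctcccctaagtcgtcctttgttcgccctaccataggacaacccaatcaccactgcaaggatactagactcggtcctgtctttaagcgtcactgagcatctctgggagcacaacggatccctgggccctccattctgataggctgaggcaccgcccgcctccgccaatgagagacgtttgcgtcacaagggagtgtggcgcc

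Dnajb13, a radial spoke protein of the sperm axoneme, was at 365 in MiwiΔIns, 237 in MiwiR371W and 309 in wild type. The cysteine-string protein relative Dnajc5b was at 369 in MiwiΔIns, 202 in MiwiR371W and 237 in wild type. Both were highest in MiwiΔIns and lowest in MiwiR371W. Dnajb7, a little-studied single-exon member, shared that order, at 127 in MiwiΔIns, 74.1 in MiwiR371W and 99.0 in wild type. Dnajb8, a relative of Dnajb6 that hinders protein aggregation, was at 189 in MiwiΔIns, 162 in MiwiR371W and 176 in wild type. The other testis cysteine-string relative, Dnajc5g, was at 161 in MiwiΔIns, 122 in MiwiR371W and 117 in wild type. Thus 5 of the 6 were highest in MiwiΔIns, Dnajb3 being the exception, and 4 of the 6 were lowest in MiwiR371W. Exons of Dnajb8 overlap the antisense gene 1700031F10Rik by up to 525 nt, and that gene was at 157 in MiwiΔIns, 137 in MiwiR371W and 145 in wild type, so without strand their reads cannot be told apart.

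**Figure D2:**
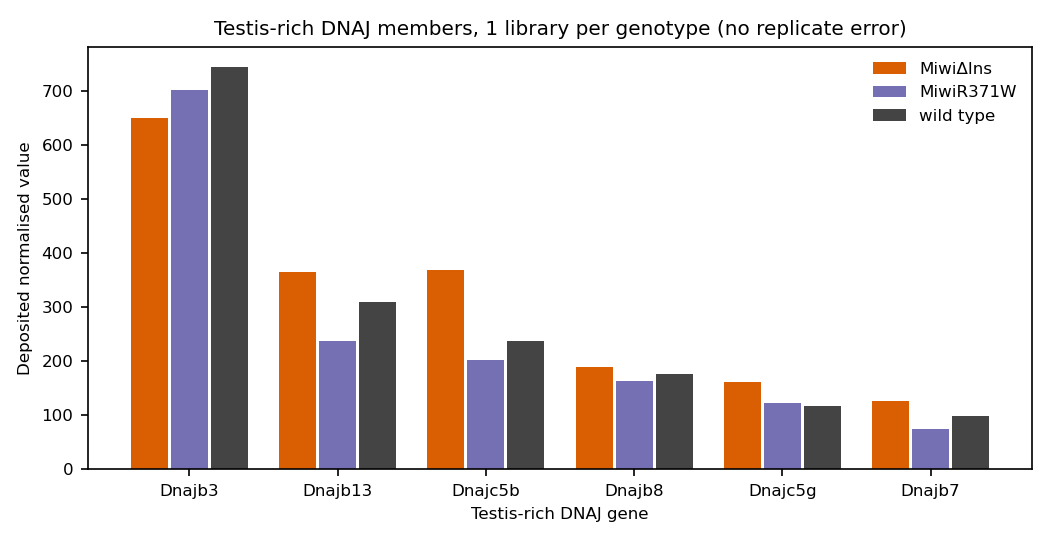
Deposited values (linear axis from 0) of the 6 testis-rich DNAJ genes, ordered by mean, with bars for MiwiΔIns, MiwiR371W and wild type from left to right; there is 1 library per genotype and no error bar. Dnajb3 is highest in wild type, while Dnajb13, Dnajc5b, Dnajb8, Dnajc5g and Dnajb7 are highest in MiwiΔIns.

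The genes of the testis-rich list also differed from the family in structure. In GENCODE M21, 3 of the 6 (Dnajb3, Dnajb7 and Dnajb8) had coding transcripts of a single exon. Among the other 39 members only the mitochondrial Dnajc30 did, and the same held for 490 of 15334 annotated coding genes (3.20%). The 6 genes lay on 6 chromosomes, and none of the 45 members was on X or Y. Median annotated transcript length was 986 nt for the list and 1441 nt for the other members.

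Class A held the general cytosolic co-chaperones and a mitochondrial member. Dnaja1, which in mice is needed for normal spermatogenesis, was at 145 in MiwiΔIns, 146 in MiwiR371W and 117 in wild type. Dnaja4 was at 145 in MiwiΔIns, 108 in MiwiR371W and 132 in wild type and was the class A member with its lowest value in MiwiR371W. Dnaja2, a constitutive cytosolic co-chaperone, was at 59.4 in MiwiΔIns, 70.1 in MiwiR371W and 57.5 in wild type. The mitochondrial Dnaja3 was at 18.6 in MiwiΔIns, 19.4 in MiwiR371W and 21.4 in wild type, lower in both mutant libraries than in wild type. No class A member differed by more than 1.34-fold between any 2 libraries. Processed pseudogenes with at least 95% identity to Dnaja1 over at least 250 nt, Gm15542 and Gm7816, were at 4.36 or less in every library.

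Among the class B members outside the testis-rich list, Dnajb6, which suppresses the aggregation of polyglutamine proteins, was the most abundant at 427 in MiwiΔIns, 467 in MiwiR371W and 396 in wild type. Its near-identical pseudogenes Gm13414, Gm2541 and Gm6395 were at 5.10 or less in every library. Dnajb1, the main stress-inducible partner of cytosolic HSP70, was at 218 in MiwiΔIns, 237 in MiwiR371W and 217 in wild type and ranged over 1.09-fold, the narrowest of the class. Dnajb4, a related cytosolic member, was at 126 in MiwiΔIns, 128 in MiwiR371W and 111 in wild type. Dnajb2, which links HSP70 clients to ubiquitin-dependent degradation, was at 75.8 in MiwiΔIns, 97.3 in MiwiR371W and 87.3 in wild type. Dnajb5 was the least abundant class B member at 10.7 in MiwiΔIns, 16.0 in MiwiR371W and 13.4 in wild type. Both Dnajb2 and Dnajb5 were highest in MiwiR371W and lowest in MiwiΔIns, the reverse of Dnajb7 and Dnajb13.

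Members of the endoplasmic reticulum, 10 in all, summed to 266 in MiwiΔIns, 271 in MiwiR371W and 237 in wild type. Dnajb9, a co-chaperone of the luminal HSP70 BiP that feeds back on the unfolded protein response, led them at 82.7 in MiwiΔIns, 73.7 in MiwiR371W and 72.0 in wild type. Dnajb11, which binds BiP clients in the lumen, was at 38.2 in MiwiΔIns, 43.8 in MiwiR371W and 27.8 in wild type. Dnajc10, a disulfide reductase of the lumen, was at 37.8 in MiwiΔIns, 50.4 in MiwiR371W and 33.2 in wild type. Dnajc3, which binds unfolded luminal proteins, was at 10.4 in MiwiΔIns, 8.61 in MiwiR371W and 6.42 in wild type. These last 3 were lowest in wild type, as were Dnajb9 and Dnajb14. In the whole family, 23 of 45 members were lowest in wild type, and the share among all genes was not counted. The membrane members Dnajb12 and Dnajb14 were at 28.8 in MiwiΔIns, 29.9 in MiwiR371W and 35.9 in wild type, and at 21.2 in MiwiΔIns, 20.4 in MiwiR371W and 19.1 in wild type. Dnajc18 was at 34.3 in MiwiΔIns, 25.4 in MiwiR371W and 25.7 in wild type. Dnajc16, Dnajc1 and Dnajc25 lay between 2.42 and 9.02 in all libraries. Exons of Dnajc1 overlap Mllt10 on the opposite strand by up to 365 nt, and Mllt10 was at 27.5 in MiwiΔIns, 37.9 in MiwiR371W and 28.5 in wild type.

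Mitochondrial members were dominated by Dnajc15, an inner membrane protein known to restrain respiratory complex I. It was at 597 in MiwiΔIns, 358 in MiwiR371W and 406 in wild type (ENSMUSG00000022013.3; GRCm38 chromosome 14, 77820681 to 77875125, minus strand), rank 198 of the coding genes. Its paralogue Dnajc19, a subunit of the motor that pulls proteins through the inner membrane, was far lower at 21.2 in MiwiΔIns, 7.96 in MiwiR371W and 10.7 in wild type. Both were highest in MiwiΔIns and lowest in MiwiR371W. Dnajc30, which associates with ATP synthase, was at 29.2 in MiwiΔIns, 26.8 in MiwiR371W and 29.3 in wild type. Dnajc28 was at 19.8 in MiwiΔIns, 19.3 in MiwiR371W and 17.6 in wild type. Dnajc11, a protein of the cristae organising machinery, was at 4.31 in MiwiΔIns, 4.77 in MiwiR371W and 4.34 in wild type. The other mitochondrial members thus stayed within 1.15-fold across the libraries while Dnajc15 and Dnajc19 spanned 1.67-fold and 2.67-fold.

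Of the nuclear and ribosome-linked members, Dnajc2, part of the ribosome-associated chaperone complex, was at 229 in MiwiΔIns, 146 in MiwiR371W and 209 in wild type and had the lowest log2(value + 1) ratio of MiwiR371W against wild type in class C. The ribosome biogenesis factor Dnajc21 was at 72.9 in MiwiΔIns, 63.6 in MiwiR371W and 52.7 in wild type. Dnajc9, a co-chaperone of histones H3 and H4, was at 42.0 in MiwiΔIns, 40.5 in MiwiR371W and 31.2 in wild type. The spliceosome-associated Dnajc8 was at 32.9 in MiwiΔIns, 35.7 in MiwiR371W and 30.9 in wild type. Dnajc17 was below 1 in every library, with a near-identical pseudogene, Gm6257, at 2.21 in MiwiΔIns, 0.94 in MiwiR371W and 1.57 in wild type, so its value is uncertain.

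Among vesicle members, the neuronal cysteine-string protein Dnajc5 was at 5.36 in MiwiΔIns, 6.11 in MiwiR371W and 4.90 in wild type, far below its testis relatives Dnajc5b and Dnajc5g. The clathrin-uncoating factor Dnajc6, known from neurons, was at 1.28 in MiwiΔIns, 1.07 in MiwiR371W and 0.82 in wild type. Dnajc13, an endosomal member, was at 4.78 in MiwiΔIns, 6.20 in MiwiR371W and 3.84 in wild type. Dnajc27, which joins a Rab-like GTPase domain to a J domain, was at 78.8 in MiwiΔIns, 84.5 in MiwiR371W and 74.1 in wild type. In the remaining class C members, Dnajc7, a cytosolic adaptor of HSP70 and HSP90, was at 92.3 in MiwiΔIns, 92.7 in MiwiR371W and 81.4 in wild type. Dnajc4 was at 47.4 in MiwiΔIns, 42.4 in MiwiR371W and 44.3 in wild type, Dnajc14 at 8.39 in MiwiΔIns, 8.98 in MiwiR371W and 7.28 in wild type, and Dnajc24, which acts in diphthamide synthesis, at 5.32 in MiwiΔIns, 3.06 in MiwiR371W and 4.17 in wild type. Dnajc12 and Dnajc22 were below 1.3 in all libraries and rested on fewer than 10 estimated fragments each, which is too few to describe a difference.

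For MiwiΔIns against wild type, no DNAJ member was past the size rule, while most members stood somewhat higher. The rule asked for a difference of at least 2-fold on the log2(value + 1) scale and a value of at least 5 in the higher library. Of 38 members with such a value, 0 were higher and 0 lower, against 1.3% higher and 0.76% lower (2.06% in either direction) among the 8550 genes of the table that could pass. Positive log2 ratios were found in 34 of 45 members, with a median of 0.14, against 0.03 for all 12567 genes with a mean of at least 1 and 0.02 for the 11031 coding ones. Of those 12567 genes, 6675 were positive. Class medians were 0.09 for A, 0.11 for B and 0.17 for C. Scaled to equal table sums, 28 of 45 members were positive. The family's median was then 0.06, that of class A −0.01, and that of all genes −0.07. Over all genes the split of 111 higher and 65 lower then became 83 and 74, and it was 70 and 66 after removal of a trend with GC and length.

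The largest positive log2 ratios among members with a mean of at least 5 belonged to Dnajc19 (0.92, at 21.2 in MiwiΔIns and 10.7 in wild type) and Dnajc5b (0.64, at 369 in MiwiΔIns and 237 in wild type). Dnajc3 had 0.62 and Dnajc15 0.56. The largest negative ones belonged to Dnajc1 (−0.57, at 4.70 in MiwiΔIns and 7.48 in wild type) and Dnajb12 (−0.31, at 28.8 in MiwiΔIns and 35.9 in wild type). Counting error alone gives an SD of 0.24 to the ratio of Dnajc19 and of 0.24 to that of Dnajc1. Of the testis-rich list, 5 of 6 were positive with a median of 0.29, the exception being Dnajb3 at −0.20. With equal table sums 4 of 6 were positive, with a median of 0.19. All 6 vesicle members were positive, with a median of 0.29, and 5 of 6 with equal sums. Ratios of 0.5 or more in either direction were found in 5 of 42 members with a mean of at least 1 (11.9%). They were found in 13.2% of coding genes with such a mean, which were not matched to the members for level.

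Transcript GC content moved with these log2 ratios. Across the 42 members with a mean of at least 1, Spearman's rho between GC and log2 ratio was −0.61. Across 12374 genes of the table it was −0.35, where the genes of lowest GC (up to 44.6%) had a median of 0.13 and those of highest GC (from 55.6%) a median of −0.19. These points share the same pair of libraries and are not independent replicates. Dnajc19 had a transcript GC of 40.3%, Dnajc3 43.2%, Dnajc15 44.1% and Dnajc5b 45.2%, while Dnajb3 had 55.9% and Dnajb2 56.0%. After removal of that trend and of one with length, the family's median was 0.07 and the ratio of Dnajc19 was 0.75. In MiwiR371W against wild type rho was −0.11 across the members and −0.15 across all genes. In MiwiR371W against MiwiΔIns it had the opposite sign, at 0.31 across the members and 0.13 across all genes.

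**Figure D3:**
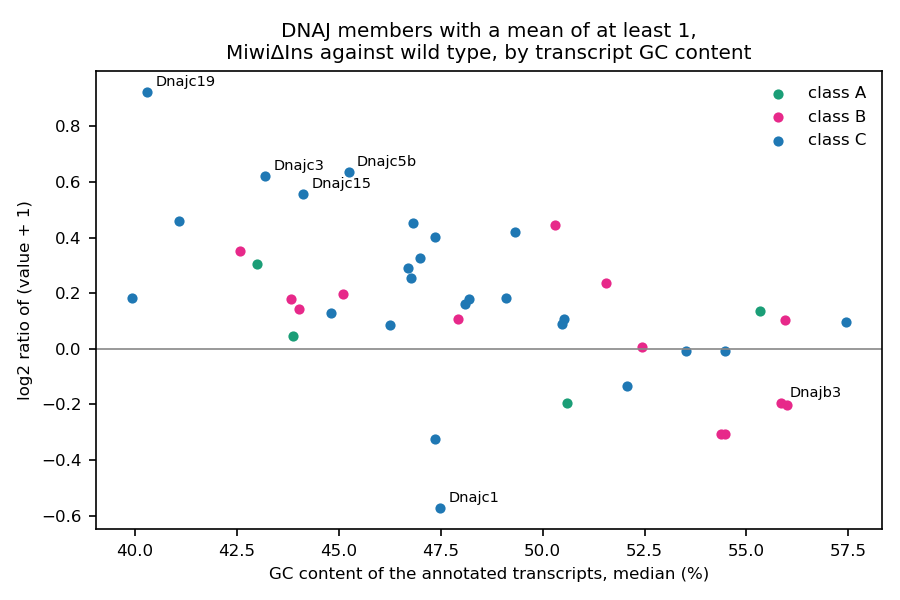
Log2 ratio of (value + 1) in MiwiΔIns against wild type for the 42 DNAJ genes with a mean of at least 1, plotted against the median GC content of their annotated transcripts, coloured by class. Dnajc19, with a GC of 40.3%, has the highest ratio, most members below 50% GC lie above 0, and Dnajb3 at 55.9% lies below 0.

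In MiwiR371W against wild type no member was past the size rule either. Again 38 members reached 5 in the higher library, of which 0 were higher and 0 lower, against 1.46% higher and 1.85% lower (3.3% in either direction) among 8719 genes. Positive log2 ratios were found in 27 of 45 members, with a median of 0.13, against 0.04 for all genes and 0.05 for coding genes. Of the 12567 genes with a mean of at least 1, 6785 were positive. The class medians were 0.07 for A, 0.09 for B and 0.15 for C. When mitochondrially encoded genes and the 50 with the highest values were left out before rescaling, the family's median was 0.18 and that of all genes 0.09. The split of all called genes, 127 higher and 161 lower, was 155 and 127 in that setting. The wild-type library is shared with the MiwiΔIns comparison, so the values of both comparisons are not independent.

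Counting members whose mean was 5 or more, the largest positive log2 ratios in MiwiR371W against wild type belonged to the endoplasmic reticulum members Dnajb11 (0.64, at 43.8 in MiwiR371W and 27.8 in wild type) and Dnajc10 (0.59, at 50.4 in MiwiR371W and 33.2 in wild type). The ER list as a whole had 6 of 10 positive and a median of 0.06, which turned to −0.07, with 4 of 10 positive, once the GC and length trend was removed. The largest negative ratios among these belonged to Dnajc2 (−0.52, at 146 in MiwiR371W and 209 in wild type) and Dnajb7 (−0.41, at 74.1 in MiwiR371W and 99.0 in wild type), followed by Dnajc19 (−0.39) and Dnajb13 (−0.39). Counting error alone gives the ratio of Dnajc19 here an SD of 0.33. Of the testis-rich list 5 of 6 were negative with a median of −0.17, Dnajc5g being the exception at 0.06. Under the 4 other scalings 5 of 6 stayed negative, with medians from −0.22 to −0.12, and 4 of 6 were negative with the GC and length trend removed. Outside that list 26 of 39 members were positive, with a median of 0.17. Ratios of 0.5 or more either way were found in 4 of 42 members (9.52%), against 20.9% of coding genes with a mean of at least 1. Both sets were not matched for level, and the median member lay well above the median coding gene.

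**Figure D4:**
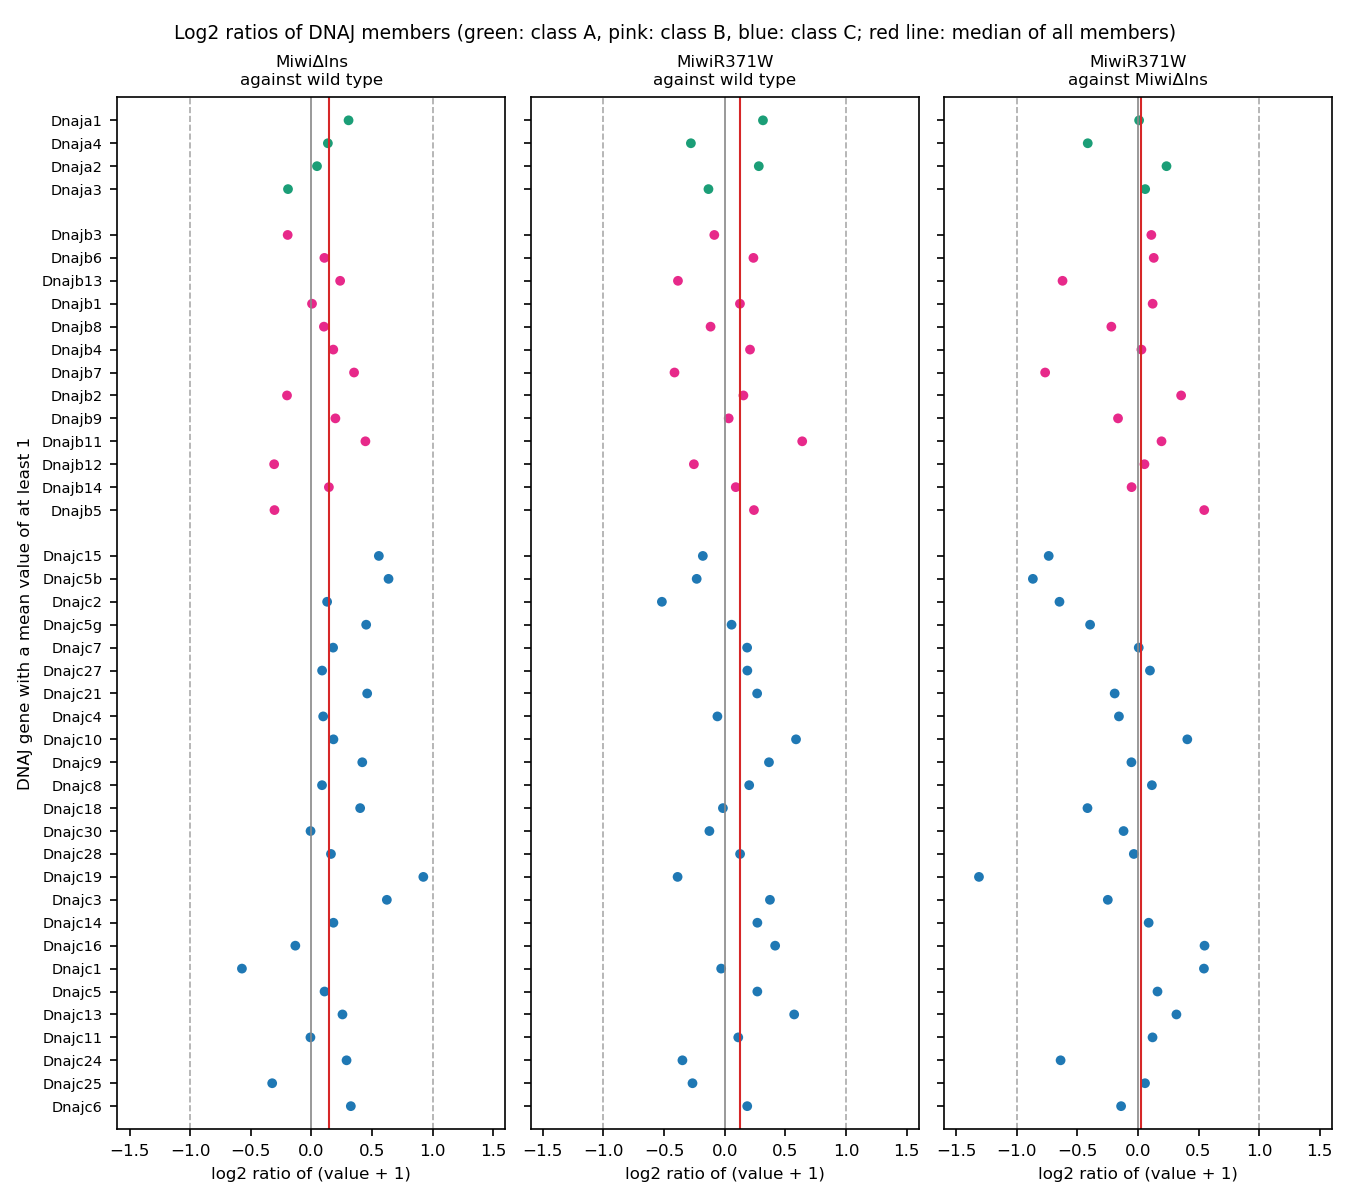
Log2 ratio of (value + 1) for the 42 DNAJ genes with a mean of at least 1, in MiwiΔIns against wild type (left), MiwiR371W against wild type (middle) and MiwiR371W against MiwiΔIns (right); dashed lines mark a 2-fold difference and the red line the median of all 45 members (0.14, 0.13 and 0.03). The point beyond a dashed line is Dnajc19 in the right panel, at −1.31.

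The mutant libraries differed from each other in 1 member by the size rule, Dnajc19, which was lower in MiwiR371W. It was at 7.96 in MiwiR371W and 21.2 in MiwiΔIns (log2 −1.31; ENSMUSG00000027679.7; GRCm38 chromosome 3, 34056020 to 34081321, minus strand), with the wild-type library at 10.7. Of 39 members that reached 5 in the higher mutant library, 0 were higher and 1 lower. Of the 8744 genes that could pass, 1.27% were higher and 3.21% lower (4.48% in either direction), so a single lower member is close to the background. Dnajc19 stayed past the rule in all 9 alternative settings, between −1.40 and −1.02. Its values rest on about 30 fragments in MiwiR371W and 116 in MiwiΔIns by the median annotated length, and counting error alone gives the log2 ratio an SD of 0.30. Its 5 annotated transcripts run in length from 419 to 2499 nt, so a length-normalised value depends on how reads were divided among them. A processed pseudogene, Dnajc19-ps, is 98.9% identical to Dnajc19 over 281 nt and has no value in the table. How reads were shared with that copy is not known. Exons of Dnajc19 overlap Fxr1 on the opposite strand by up to 91 nt, and Fxr1 was at 375 in MiwiΔIns, 373 in MiwiR371W and 336 in wild type. The 250 bases before the RefSeq start of Dnajc19 (chr3:34081355-34081604, GRCm38.p6, minus strand) are shown because it is the member past the rule. They held none of the motifs searched.
Dnajc19: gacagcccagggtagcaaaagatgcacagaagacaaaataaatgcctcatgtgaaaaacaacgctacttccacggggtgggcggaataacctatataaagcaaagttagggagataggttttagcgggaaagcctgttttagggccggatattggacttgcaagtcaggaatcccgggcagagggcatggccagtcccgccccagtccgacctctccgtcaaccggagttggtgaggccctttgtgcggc

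Below the rule, 5 of the 6 members with the next lowest ratios in MiwiR371W against MiwiΔIns had means of about 100 or more. Dnajc5b was at 202 in MiwiR371W and 369 in MiwiΔIns (−0.87), Dnajb7 at 74.1 in MiwiR371W and 127 in MiwiΔIns (−0.77), Dnajc15 at 358 in MiwiR371W and 597 in MiwiΔIns (−0.74), Dnajc2 at 146 in MiwiR371W and 229 in MiwiΔIns (−0.65) and Dnajb13 at 237 in MiwiR371W and 365 in MiwiΔIns (−0.62). The other was Dnajc24, at 3.06 in MiwiR371W and 5.32 in MiwiΔIns (−0.64). Its value in MiwiR371W rested on 9.77 estimated fragments, and counting error alone gives its ratio an SD of 0.54. That is too few to describe a difference. Of the testis-rich list 5 of 6 were negative, with a median of −0.51, and Dnajb3 was at 0.11. In the 5 rescaled or detrended settings 5 of 6 were negative, with medians from −0.53 to −0.36. The family's median was 0.03, with 25 members positive and 20 negative, and that of all genes 0.02, with 6558 of 12567 positive. Class medians were 0.03, 0.05 and −0.01 for A, B and C, and the sign of the medians of B and C depends on the setting: −0.05 for B with the trend removed and 0.10 for C with equal table sums. With equal table sums the median of all genes was 0.15 and that of the family 0.15, and the split of all called genes of 111 higher and 281 lower became 169 and 184. Counting members whose mean was 5 or more, the largest positive ratios were those of Dnajc16 (0.55, at 9.02 in MiwiR371W and 5.85 in MiwiΔIns) and Dnajb5 (0.55, at 16.0 in MiwiR371W and 10.7 in MiwiΔIns). Counting error alone gives the ratio of Dnajc16 an SD of 0.31, and its annotated transcripts run from 464 to 5969 nt.

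Of the 10 round spermatid markers, 5 had the same order of libraries as Dnajb7, Dnajb13 and Dnajc5b: Acrv1, Crem, Spaca1, Acr and Izumo1. Among these, Acrv1 was at 603 in MiwiΔIns, 331 in MiwiR371W and 460.2 in wild type, Spaca1 at 318 in MiwiΔIns, 191 in MiwiR371W and 280.5 in wild type, and Izumo1, needed for fusion with the egg, at 102 in MiwiΔIns, 63.4 in MiwiR371W and 98.7 in wild type. The other 5 did not share it. Prm1, Prm2, Tnp1 and Tnp2 were lowest in wild type, with Tnp1 at 4861 in MiwiΔIns, 2811 in MiwiR371W and 2626 in wild type. The acrosomal gene Acrbp was highest in wild type, at 1001 in MiwiΔIns, 965 in MiwiR371W and 1024 in wild type. The part of spermatid stage in the DNAJ values was not tested.

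**Figure D5:**
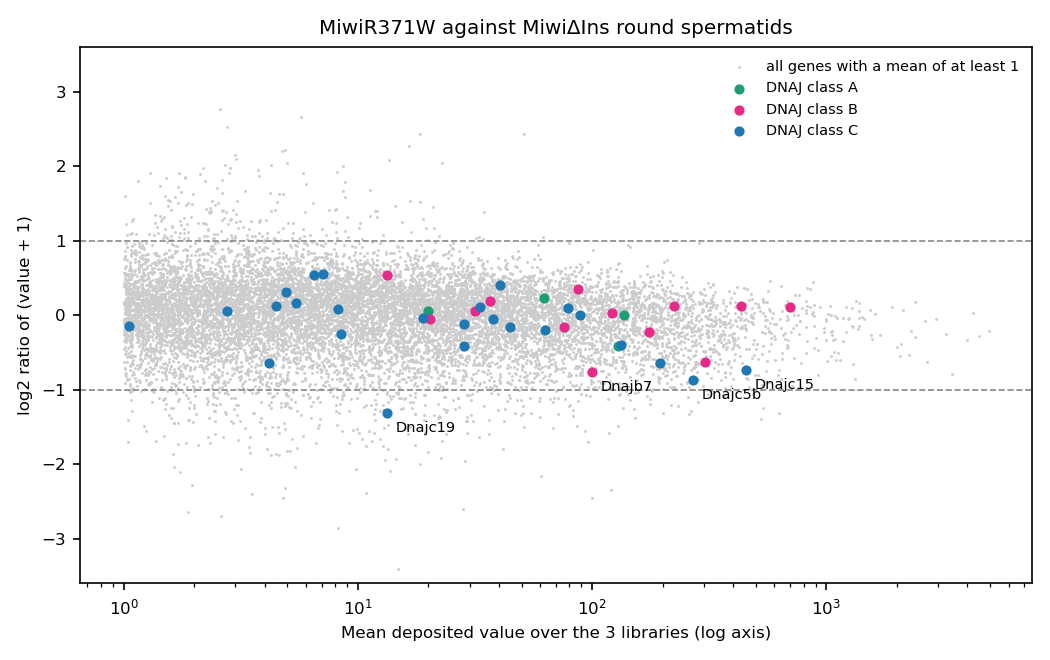
Log2 ratio of (value + 1) in MiwiR371W against MiwiΔIns by mean value over the 3 libraries (log axis); grey points are all genes with a mean of at least 1, coloured points the DNAJ classes, and dashed lines a 2-fold difference. Dnajc19 lies below −1, and Dnajc5b, Dnajb7 and Dnajc15 lie between −0.87 and −0.74 at means of about 100 and above.

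Members known to be induced by heat shock, Dnaja1, Dnaja4, Dnajb1 and Dnajb4, summed to 634 in MiwiΔIns, 620 in MiwiR371W and 577 in wild type. Against wild type, their log2 ratios in MiwiΔIns were all positive, with a median of 0.16, and 3 of 4 in 4 rescaled settings. In MiwiR371W 3 of 4 were positive with a median of 0.17, and Dnaja4 was at −0.28. None was past the size rule.

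The promoters of the family were searched on both strands for the heat shock motifs GAANNTTC and TTCNNGAA and for the cyclic AMP response element TGACGTCA, the site of CREM-type factors. RefSeq windows from 250 bases before to 50 after the start were found for 37 members. At least 1 heat shock motif was in 7 of them (18.9%), against 14.9% of 11294 coding genes of the table with a window. Those 7 were Dnaja1, Dnaja4, Dnajb4, Dnajb6, Dnajc10, Dnajc27 and Dnajc5g. Of the 4 heat shock inducible members, 3 held a match and Dnajb1 held none in these windows. A gene was counted if any of its windows held a match, and Dnaja1, Dnaja4 and Dnajb4 each also had windows without a heat shock motif. The cyclic AMP response element was in 1 of 37 members (2.70%), Dnajc27, and in 3.27% of the coding genes, and in 0 of the 5 testis-rich members with a window. A match describes letters in a window and is not a bound site.

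The upstream windows of the 3 inducible members with a match, and of Dnajb6, the most abundant member with one, are shown 5′ to 3′ with the motif letters in capitals. All are GRCm38.p6 and lie at chr4:40722218-40722467 (plus strand), chr9:54699309-54699558 (plus), chr3:152193846-152194095 (minus) and chr5:29735648-29735897 (plus). Dnaja4 has 2 matches, and in Dnajb6 a GAANNTTC and a TTCNNGAA match overlap.
Dnaja1: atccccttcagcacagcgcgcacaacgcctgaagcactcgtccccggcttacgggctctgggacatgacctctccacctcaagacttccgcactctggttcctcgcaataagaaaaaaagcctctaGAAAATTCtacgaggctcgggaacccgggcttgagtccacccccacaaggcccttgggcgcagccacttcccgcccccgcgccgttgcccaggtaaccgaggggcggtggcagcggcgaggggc
Dnaja4: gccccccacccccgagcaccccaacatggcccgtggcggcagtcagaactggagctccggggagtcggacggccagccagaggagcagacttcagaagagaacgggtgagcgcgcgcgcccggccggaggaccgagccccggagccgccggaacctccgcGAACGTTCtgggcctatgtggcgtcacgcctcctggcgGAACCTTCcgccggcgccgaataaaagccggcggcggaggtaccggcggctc
Dnajb4: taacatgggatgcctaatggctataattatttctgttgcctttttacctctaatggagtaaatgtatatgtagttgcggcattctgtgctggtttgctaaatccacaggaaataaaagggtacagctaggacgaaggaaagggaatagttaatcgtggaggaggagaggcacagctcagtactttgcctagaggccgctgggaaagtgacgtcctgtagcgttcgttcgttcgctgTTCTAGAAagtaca
Dnajb6: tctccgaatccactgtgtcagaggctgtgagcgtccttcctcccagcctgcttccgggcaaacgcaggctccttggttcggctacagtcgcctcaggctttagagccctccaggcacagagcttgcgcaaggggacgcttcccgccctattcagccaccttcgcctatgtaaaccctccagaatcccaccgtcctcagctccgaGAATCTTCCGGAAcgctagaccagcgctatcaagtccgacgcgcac

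The HSP70 partners of the family were led by the testis-rich Hspa2 at 664 in MiwiΔIns, 855 in MiwiR371W and 958 in wild type and Hspa1l at 225 in MiwiΔIns, 249 in MiwiR371W and 236 in wild type. Of 28 measured partner genes (of 29 listed), none was past the size rule in any of the 3 comparisons, with 21 at a value of at least 5. Over all genes that could pass, 2.06% did in MiwiΔIns against wild type and 3.3% in MiwiR371W against wild type. Between the mutants it was 4.48%, so none of 21 is close to the background. Among the 10 measured HSP70 genes, all 10 had a positive log2 ratio in MiwiR371W against MiwiΔIns, with a median of 0.29. Of all 12567 genes with a mean of at least 1, 6558 were positive, with a median of 0.02. Only 6 of the 10 HSP70 genes reached a value of 5 in the higher library. In MiwiR371W against wild type 8 of 10 were positive, with a median of 0.38, and in MiwiΔIns against wild type 5 of 10, with a median of 0.05. Once GC and length trends were removed, 8 of 10 were positive between the mutants, and the median of MiwiΔIns against wild type was −0.025. Hspa5, which encodes BiP, the HSP70 partner of Dnajb9, Dnajb11, Dnajc3 and Dnajc10, was at 183 in MiwiΔIns, 273 in MiwiR371W and 188 in wild type. Hspa14, the partner of Dnajc2 in the ribosome-associated complex, was at 1.48 in MiwiΔIns, 2.97 in MiwiR371W and 1.25 in wild type. Hence Dnajc2, above 145 in every library, and its partner were far apart in level, on the length-normalised scale.

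Nucleotide exchange factors reopen HSP70 after hydrolysis. The list drawn up for them was led by Hspa4l at 605 in MiwiΔIns, 518 in MiwiR371W and 589 in wild type. Next came Bag6 at 495 in MiwiΔIns, 562 in MiwiR371W and 618 in wild type. Whether Bag6 reopens HSP70 was not tested. The medians of the list were −0.01 in MiwiΔIns against wild type, 0.08 in MiwiR371W against wild type and 0.14 in MiwiR371W against MiwiΔIns. J-domain genes with other symbols were low to moderate, with the translocon-linked Sec63 at 26.6 in MiwiΔIns, 32.1 in MiwiR371W and 23.1 in wild type and the auxilin relative Gak at 12.8 in MiwiΔIns, 12.7 in MiwiR371W and 13.3 in wild type. The iron-sulfur cluster co-chaperone Hscb, another mitochondrial J-domain protein, was at 14.5 in MiwiΔIns, 8.74 in MiwiR371W and 13.6 in wild type, with a log2 ratio of −0.67 in MiwiR371W against MiwiΔIns.

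Across the 3 libraries, 19 members were highest in MiwiΔIns, 19 in MiwiR371W and 7 in wild type. The lowest value was in MiwiΔIns for 10 members, in MiwiR371W for 12 and in wild type for 23. Exons of 13 members overlap another gene of the table on the opposite strand, and 3 members have a near-identical copy in the table. For Dnaja4, exons overlap Wdr61 by up to 1581 nt, and Wdr61 was at 11.5 in MiwiΔIns, 9.89 in MiwiR371W and 9.93 in wild type. For some members the overlapping gene was higher than the member in every library. Dnajc14 overlaps Ormdl2 by up to 1114 nt, at 22.6 in MiwiΔIns, 18.3 in MiwiR371W and 17.7 in wild type. Dnajc7 overlaps Nkiras2 by up to 287 nt, at 96.0 in MiwiΔIns, 138 in MiwiR371W and 115.9 in wild type.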

How the data were processed

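Total RNA of round spermatids sorted by Hoechst staining was made into mRNA libraries with the VAHTS mRNA-seq V3 kit, per the labels' protocols. The authors deposited 1 table of a signal per gene. That it is relative to transcript length and library size was read from the values, whose low steps scale with length. Whether it is FPKM or TPM is not given in the sources used here. Trim Galore 0.5.0, STAR and RSEM, and the builds mm10 and GRCm38, are named in the submitters' processing notes. The annotation used is not given there. Gene identifiers were matched without version to GENCODE M21 for 17673 genes (98.5%), giving positions, median transcript length and GC content.

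Ratios were log2((x + 1)/(y + 1)), which understates changes of low genes. The size rule was computed over the whole table. Depth was estimated from steps between low values of single-transcript genes of 600 to 2500 nt, with a step of 0.0705 value × kb in MiwiΔIns, 0.0955 in MiwiR371W and 0.0770 in wild type, and it covers counting error only. Estimated fragments of a member use its median annotated length and are approximate. Copies were searched with BLAST 2.17.0 (at least 95% identity over at least 250 nt). That length was set after hits to shared repeats were seen. Promoter windows were from RefSeq (GRCm38.p6). For 32 of 37 members, bases after the start were found in an annotated transcript in sense. Protein sequences were not used here. Python 3.11.15, pandas 2.3.3 and scipy 1.17.1 were used. The size rule, upper quartile scaling, trend removal and step search were tested on simulated data. The changes built in were larger than the rule asks for, and the other scalings were not simulated.

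Members, lists, tests and alternatives were chosen with earlier results of these data known. Members given with values were those past the rule, the testis-rich and role lists, the 3 highest per class and the 2 largest ratios each way with a mean of at least 5. Partner genes were named as up to 2 past the rule per list or else the 2 most abundant. Hspa5, Hspa14 and Hscb were named after their values were seen, as were the markers given with values. Alternatives to medians were sorted by an order-statistic interval over members, to shares and single ratios by counting error.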

Additional observations from a re-analysis of the deposited data

How the results depend on the processing

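The alternatives were a pseudocount of 0.1 or 5, no minimum or a minimum of 10, 4 rescalings and removal of the GC and length trend. Under these 9, all 54 counts of DNAJ members and all 54 counts of partner genes past the size rule equalled those reported, and Dnajc19 was the called member between the mutants each time. Over all genes, the number past the rule ranged from 50 (pseudocount of 5) to 302 (no minimum) around 176 in MiwiΔIns against wild type. It ranged from 84 to 500 around 288 in MiwiR371W against wild type, and from 174 to 638 around 392 in MiwiR371W against MiwiΔIns, under those same settings. There were 27 alternative medians of the family, the members above a mean of 5 and those outside the testis-rich list included. Of these, 22 lay within the order-statistic interval over members around the reported median. That interval treats the members as independent draws, although they share the same libraries. It served as a yardstick for the size of a shift and not as a test. In MiwiΔIns against wild type the exceptions were 0.060 with equal table sums, 0.072 when mitochondrially encoded genes and the top 50 were left out, and 0.072 with the trend removed. Between the mutants they were 0.15 with equal table sums and 0.14 with those genes left out, where all genes had medians of 0.15 and 0.14. The cause was not tested.

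Shares of the family depend on Dnajb3. Without it, class A held 9.22% in MiwiΔIns, 10.4% in MiwiR371W and 9.81% in wild type, class B 42.8% in MiwiΔIns, 48.0% in MiwiR371W and 46.8% in wild type, class C 48.0% in MiwiΔIns, 41.6% in MiwiR371W and 43.4% in wild type, and the testis-rich members 30.3% in MiwiΔIns, 24.1% in MiwiR371W and 28.1% in wild type. As shares of the summed class medians, class A had 41.1% in MiwiΔIns, 44.5% in MiwiR371W and 43.6% in wild type, class B 50.6% in MiwiΔIns, 48.5% in MiwiR371W and 49.3% in wild type, and class C 8.27% in MiwiΔIns, 7.06% in MiwiR371W and 7.06% in wild type. The testis-rich median was 90.5% in MiwiΔIns, 87.2% in MiwiR371W and 88.1% in wild type of its sum with the median of the other members. By construction these weight the 4 members of class A like the 28 of class C.

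The 55 of 513 member ratios that moved beyond counting error did so with equal table sums, with the top genes left out or with the trend removed. With 1 library per genotype no replicate was left out. No paired analysis was possible because the labels give 1 library per genotype and no replicate numbers.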
